A study of Mus musculus with 2 samples.

Results

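Imprinted genes are read mainly from the copy inherited from one parent, and the 10 described here are Peg3, Peg10, Dlk1, Meg3, Nnat, Igf2, H19, Cdkn1c, Gnas and Plagl1, of 46983 genes counted. They were chosen by name as imprinted genes, with earlier results of these data known, and each was matched to a single identifier in the counts. Counts of members set beside the shares of all genes therefore describe these 10 genes and not imprinted genes in general. The cells were islet cells of 9-day-old mouse pups, sorted for the tdTomato reporter and profiled with droplet 3' RNA sequencing, in which unique molecular identifiers (UMIs) count the captured transcripts. The Isl1CKO library pooled 6 pups of genotype Neurod1 Cre/+; Isl1f/f, and the control library pooled 6 pups of genotype Neurod1 Cre/+; Isl1f/+. All pups thus carried the Neurod1-driven Cre, which acts in the endocrine lineage, and control cells can have lost Isl1 from the single floxed allele. Both pools were dissociated with actinomycin D, which blocks transcription. With 1 pooled library per genotype no difference has a replicate check, so no test was run. Intervals are exact 95% intervals for counting error alone.

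Imprinting marks are DNA methylation states set in the germ line, and several imprinted genes are textbook regulators of fetal growth. Imprinted genes lie in clusters in which a paternally expressed gene often neighbours a maternally expressed noncoding RNA, as Dlk1 does Meg3 and Igf2 does H19. In islets, members of the family act on hormone processing, on the cell cycle of endocrine cells and on cAMP signalling. The 3' counts hold no parental allele, so they show the summed level of both copies and say nothing of imprinting itself.

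The Isl1CKO library held 3020 cells with a median of 24906.5 UMIs, against 2504 control cells with a median of 22638.5 UMIs. Hormone transcripts made up 12.2% of Isl1CKO UMIs and 53.3% of control UMIs. The library labelled Isl1CKO still had Isl1 UMIs, at 460.7 CPM (UMIs of a gene scaled to a common total of UMIs over the cells summed) against 253.4 CPM in control cells; the floxed part of the gene is not given in the labels, so 3' counts do not check the deletion. A cell entered a class when single genes took a fixed share of its UMIs. Insulin-high cells had at least 20% Ins1 and Ins2 and numbered 383 in Isl1CKO and 898 in control. Ttr-high cells, with at least 5% of the thyroid hormone carrier Ttr, numbered 1445 in Isl1CKO, and Chgb-high cells, with at least 4% of the granule protein Chgb, numbered 494. Among control cells 617 were Gcg-high, with at least 10% glucagon, and 539 were Sst-high, with at least 5% somatostatin. The Isl1CKO library had 2 Gcg-high and 6 Sst-high cells, too few to describe. No class took 755 Isl1CKO cells and 465 control cells.

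Markers of the classes were checked beyond the defining genes. The glucose transporter Slc2a2, a beta-cell marker, stood at 318 CPM in Isl1CKO and 366 CPM in control insulin-high cells, and at 38.9 CPM or less in the other classes. The delta-cell factor Hhex stood at 437 CPM in control Sst-high cells, against 3.06 CPM in control insulin-high and 6.53 CPM in control Gcg-high cells. Irx1, an alpha-cell factor, stood at 252 CPM in Isl1CKO Ttr-high and 152 CPM in control Gcg-high cells, against 5.31 and 1.80 CPM in Isl1CKO and control insulin-high cells. These 3 markers were chosen after their values were seen. Ttr-high Isl1CKO cells had 2030 CPM of Gcg, against 279789 CPM in control Gcg-high cells, so they are called by their rule and by no cell type name. Chgb-high Isl1CKO cells had 14.4 CPM of the enterochromaffin marker Tph1, close to the 13.8 CPM of Ttr-high cells. The enterochromaffin markers Slc18a1, Fev and Ddc were higher in Chgb-high than in Ttr-high cells. Slc18a1 stood at 39.0 and 3.89 CPM, Fev at 420 and 192 CPM and Ddc at 219 and 79.7 CPM. Lmx1a, at 0.196 and 0 CPM, had too few UMIs to compare. With the markers divided, Chgb-high cells are likewise called by their rule alone. The 2 libraries shared 4 cell barcodes.

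**Figure D1:**
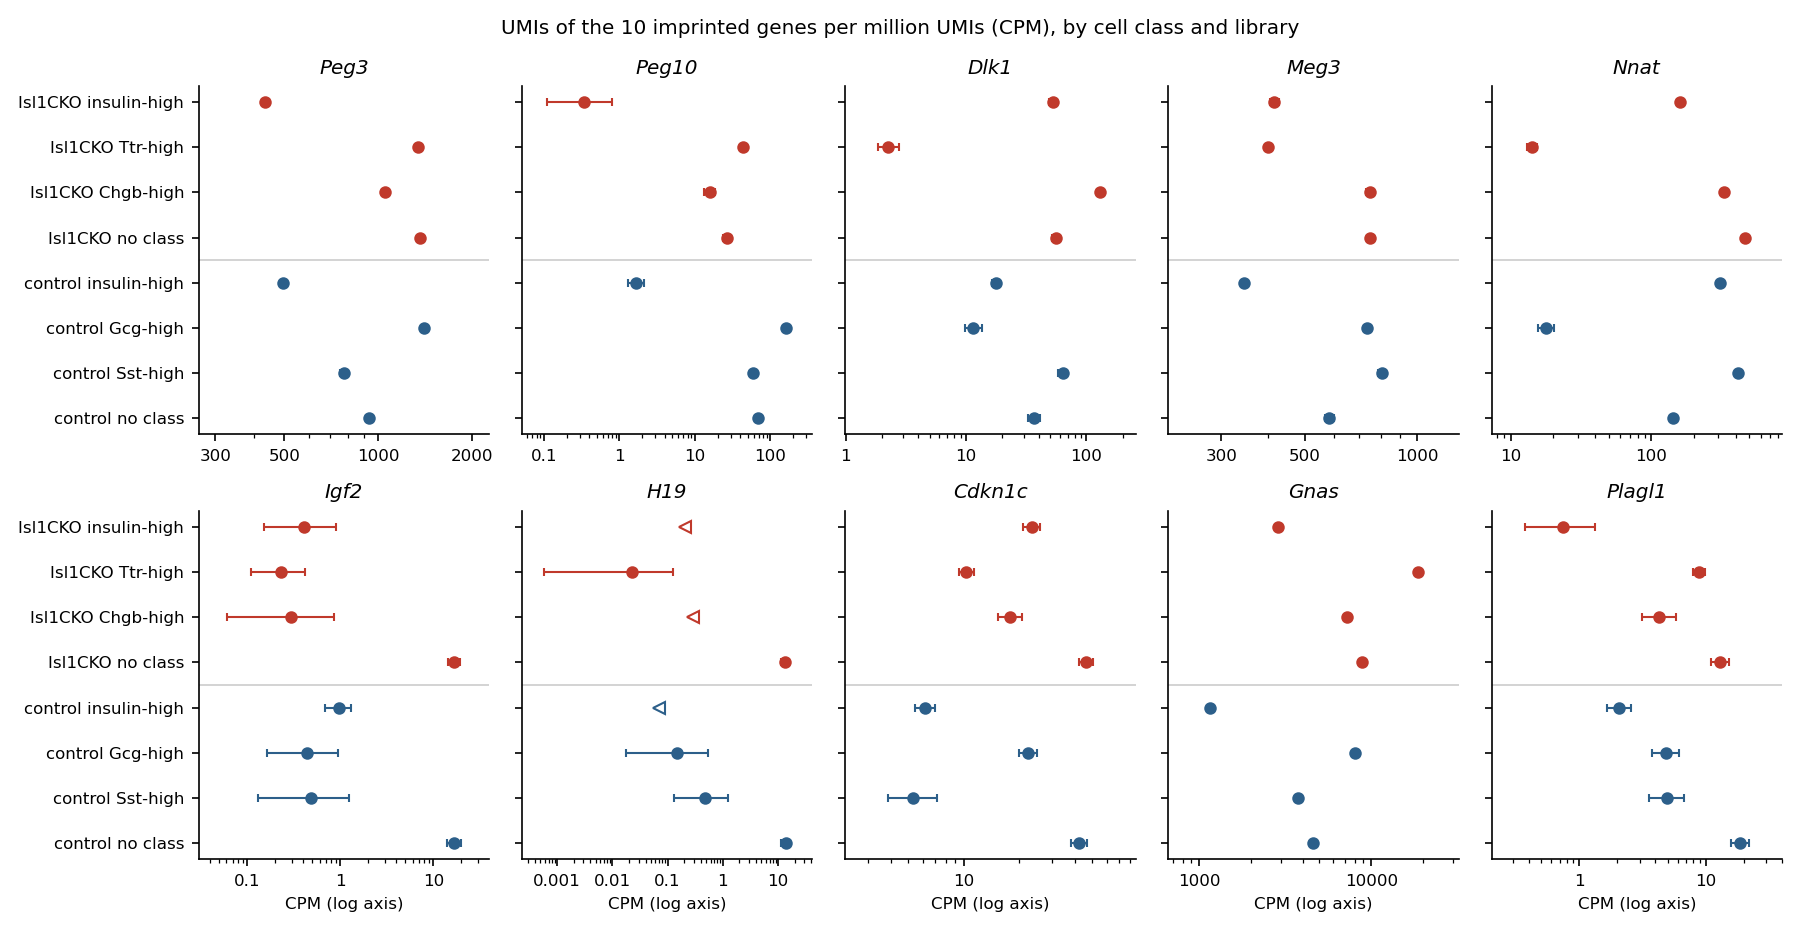
CPM (log axis, own scale per gene) of the 10 imprinted genes in each class, Isl1CKO sums in red above control sums in blue; bars are exact 95% intervals for counting error, and open triangles mark a floor of 3 UMIs where none was counted. Peg10 lies lowest in insulin-high cells, Nnat in Ttr-high and Gcg-high cells, and Igf2 and H19 outside all classes are above every class.

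Each gene had its own distribution over the classes, shown in the plot of CPM by class. Ratios are log2 CPM ratios relative to the median gene of the same comparison, because the hormone share moves all other CPM values; a gene is counted as different at 2-fold or more, and needs 50 UMIs in the sum with the higher CPM. Levels are compared between classes for each gene and not between genes. Control Gcg-high cells were set against control insulin-high cells first. Of the 8 members with enough UMIs, 4 differed at least 2-fold, against 18.5% of all 10812 genes compared. Peg10 and Gnas were higher, as were 9.68% of all genes, and Dlk1 and Nnat lower, as were 8.79%. In control Sst-high against control insulin-high cells 2 of 7 members differed, against 16.5% of genes, with Peg10 higher, as were 9.3% of genes, and Cdkn1c lower, as were 7.18%. In control Sst-high against control Gcg-high cells 6 of 7 members differed, against 14.8% of genes. Dlk1 and Nnat were higher there, as were 7.61% of genes, and Peg3, Peg10, Cdkn1c and Gnas lower, as were 7.16%. Some of these ratios were inside 2-fold under other settings: without centring Dlk1 was at -0.64 in Gcg-high against insulin-high cells and Cdkn1c at -0.21 in Sst-high against insulin-high cells, and Peg3, at -1.01 in Sst-high against Gcg-high cells, was inside 2-fold in 5 of 18 alternatives.

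Within the Isl1CKO library, Ttr-high against insulin-high cells differed at least 2-fold for 6 of 8 members, against 21.6% of genes. Peg10, Gnas and Plagl1 were higher in Ttr-high cells, as were 12.6% of genes, and Dlk1, Nnat and Cdkn1c lower, as were 9.02%. For Chgb-high against Ttr-high cells the count was 5 of 8, against 22.9% of genes, with Dlk1 and Nnat higher in Chgb-high cells, as were 9.68% of genes, and Peg10, Gnas and Plagl1 lower, as were 13.3%.

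Nnat encodes neuronatin, a small membrane proteolipid of the endoplasmic reticulum that in mouse beta cells assists the processing of preproinsulin. The gene (ENSMUSG00000067786.16) spans chr2:157560078-157562522 on the plus strand of GRCm38, inside an intron of Blcap, which runs the other way. Nnat differed widely between classes. In Isl1CKO it stood at 160 CPM (153 to 166) in insulin-high cells, 14.2 CPM (13.1 to 15.4) in Ttr-high cells and 331 CPM (320 to 342) in Chgb-high cells. In control it stood at 310 CPM (305 to 315) in insulin-high cells, 17.8 CPM (15.6 to 20.2) in Gcg-high cells and 415 CPM (401 to 429) in Sst-high cells. Control Gcg-high over control insulin-high gave a relative log2 ratio of -5.45, and control Sst-high over control Gcg-high gave 4.82. Free RNA of the control library held 280 CPM of Nnat, and with free RNA subtracted at 5% of UMIs these ratios became -9.19 and 10.69. The 5% was a chosen setting, above the 0.980% to 2.53% found for hormones in mesenchymal-marker-rich control cells. It took away most Nnat UMIs of Gcg-high cells, so the size of both ratios rests on a small remainder.

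The same contrast appeared in shares of cells. Nnat was counted in 67.4% of Isl1CKO insulin-high cells and 83.5% of control insulin-high cells, or 33.7% and 54.9% once each cell was thinned to 5000 UMIs. In Isl1CKO Ttr-high cells the share was 15.02% (4.15% thinned), and in control Gcg-high cells it was 10.4% (3.89% thinned). Within control Gcg-high cells 3 of 617 cells had 20 or more Nnat UMIs and held 35.0% of the class's Nnat UMIs. Mesenchymal-marker-rich cells, described with Igf2, had no UMI of it, with 0 of 20 Isl1CKO cells and 0 of 40 control cells, which allow shares of cells with a UMI, not of expressing cells, up to 15% and 7.5%, at median depths of 7876.5 and 7975 UMIs. Blcap had the same order of classes as Nnat over a smaller range: it had 18.9, 11.6 and 37.8 CPM in Isl1CKO insulin-high, Ttr-high and Chgb-high cells, and 15.3, 10.6 and 25.6 CPM in control insulin-high, Gcg-high and Sst-high cells.

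Between genotypes, Nnat was lower in Isl1CKO insulin-high cells than in control insulin-high cells, with a relative log2 ratio of -1.37 (-1.43 to -1.30). Cells with 20 or more Nnat UMIs made up 7.83% of Isl1CKO insulin-high cells and 24.9% of control ones. Without centring on the median gene the ratio was -0.95, just inside 2-fold. Outside all classes the order was the other way, with 463 CPM in Isl1CKO cells and 143 CPM in control cells. These cells differ too: Ppy stood at 1027 CPM in the Isl1CKO and 119350 CPM in the control cells, 2 of 755 and 208 of 465 cells were Ppy-high, and the part of this in the Nnat values was not tested.

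By CPM, Dlk1 and Nnat had the same order of classes in each library. Meg3, the neighbour of Dlk1 in its imprinted cluster, had another order in control. Relative to the median gene, control Sst-high over control insulin-high cells gave 0.65 for Dlk1, -0.77 for Nnat and 0.02 for Meg3. The order of Dlk1 and Nnat in control thus depends on the scaling. The sequences around the starts of these 3 genes are shown. Each runs from 250 bases before to 50 bases after the RefSeq start on GRCm38.p6, 5' to 3' on the plus strand, on which all 3 genes lie, with the first of the 2 Meg3 starts in the RefSeq table and with CG dinucleotides, the targets of DNA methylation, in capitals. The windows are chr2:157559828-157560127 for Nnat, chr12:109452573-109452872 for Dlk1 and chr12:109540746-109541045 for Meg3.
Nnat: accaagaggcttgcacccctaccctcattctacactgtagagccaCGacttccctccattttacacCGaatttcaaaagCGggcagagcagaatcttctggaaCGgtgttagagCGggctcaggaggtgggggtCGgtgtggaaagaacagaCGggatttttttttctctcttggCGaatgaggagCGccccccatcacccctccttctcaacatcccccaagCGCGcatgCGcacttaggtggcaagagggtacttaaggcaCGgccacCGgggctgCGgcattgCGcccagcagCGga
Dlk1: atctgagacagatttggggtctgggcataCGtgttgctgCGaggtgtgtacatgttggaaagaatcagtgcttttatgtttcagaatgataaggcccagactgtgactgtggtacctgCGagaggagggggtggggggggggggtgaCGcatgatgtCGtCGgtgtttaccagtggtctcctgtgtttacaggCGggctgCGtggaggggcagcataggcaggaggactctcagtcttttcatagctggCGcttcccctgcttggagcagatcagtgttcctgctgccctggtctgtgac
Meg3: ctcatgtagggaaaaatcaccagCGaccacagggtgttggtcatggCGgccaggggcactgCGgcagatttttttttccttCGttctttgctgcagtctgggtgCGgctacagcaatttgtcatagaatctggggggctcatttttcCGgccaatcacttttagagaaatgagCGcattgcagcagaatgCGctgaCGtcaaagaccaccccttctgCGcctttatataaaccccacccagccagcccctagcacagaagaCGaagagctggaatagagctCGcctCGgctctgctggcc

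Nnat has 17 CG dinucleotides in its window, Dlk1 has 9 and Meg3 has 13, against a median of 7 over 32851 RefSeq promoters of the same length. As many or more were found in 31.4% of promoters for Nnat, 45.8% for Dlk1 and 37.9% for Meg3. The letters TATAA, searched on the gene's strand in the 50 bases before the start, were found for Meg3 and not for Nnat or Dlk1, and occur there in 4.93% of promoters. The window of the other Meg3 start, chr12:109545148-109545447, has 1 CG and no TATAA before its start. Promoter windows were matched for 7 of the 10 members, and methylation was not measured.

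Dlk1 encodes a membrane protein with EGF-like repeats related to Notch ligands, and its shed form acts on growth and adipose tissue. It (ENSMUSG00000040856.17) lies at chr12:109452823-109463336. In Isl1CKO its level was 52.7 CPM (49.0 to 56.5) in insulin-high cells, 2.26 CPM (1.84 to 2.76) in Ttr-high cells and 130 CPM (123 to 137) in Chgb-high cells. In control it was 17.6 CPM (16.4 to 18.9) in insulin-high cells, 11.5 CPM (9.78 to 13.5) in Gcg-high cells and 63.4 CPM (58.1 to 69.1) in Sst-high cells. Chgb-high Isl1CKO cells, at the top, and Ttr-high Isl1CKO cells, at the bottom, lay apart by a relative log2 ratio of 6.04.

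Dlk1 was, with Cdkn1c, at least 2-fold higher in Isl1CKO insulin-high cells than in control insulin-high cells, at 1.17 (1.02 to 1.31). It was counted in 60.1% of Isl1CKO and 40.5% of control insulin-high cells, or 18.0% and 7.35% at 5000 UMIs, against 2.28% (0.692% thinned) of Isl1CKO Ttr-high cells. For Isl1CKO Ttr-high against control Gcg-high cells the ratio was -2.52 (-2.90 to -2.15). The 99 UMIs of Dlk1 in Ttr-high cells came from 33 of 1445 cells. The 113 control cells that also passed the Ttr rule, 101 of them Gcg-high, had 2.12 CPM of Dlk1, and against them the ratio was -0.39, inside 2-fold. These 113 cells held 2826025 UMIs of all genes, so that level rests on very few Dlk1 UMIs. The ratio is given without an interval and does not settle whether the difference is under 2-fold.

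Meg3 is a maternally expressed long noncoding RNA of the Dlk1 cluster. It (ENSMUSG00000021268.17, chr12:109541001-109571726) is also the host of microRNA genes such as Mir770, whose reads on the same strand cannot be told apart from it. Its level ranged less than that of the genes above, from 345 CPM in control insulin-high cells to 803 CPM in control Sst-high cells. Relative to the median gene these control classes hardly differed. Control Sst-high over insulin-high cells gave 0.02 (-0.02 to 0.06), and control Gcg-high over insulin-high cells gave 0.03 (-0.01 to 0.07). Isl1CKO Chgb-high cells had 746 CPM (729 to 763) and control Gcg-high cells 735 CPM (721 to 750), intervals that overlap. Isl1CKO Ttr-high cells had 400 CPM, giving a ratio of -1.05 (-1.09 to -1.02) to control Gcg-high cells, which was inside 2-fold without centring (-0.88) and among cells with Y-linked UMIs alone (-0.91). Rian, a noncoding RNA downstream in the same cluster, was at 29.6 CPM in Isl1CKO Ttr-high cells and 66.7 CPM in control Gcg-high cells.

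Over single cells thinned to 5000 UMIs, Meg3 correlated with Rian, with Pearson r of log2 counts of 0.209 in Isl1CKO Ttr-high cells and 0.278 in control Gcg-high cells. In Isl1CKO Chgb-high and control Sst-high cells that r was 0.282 and 0.151. Between Dlk1 and Meg3 r was 0.0799 in Isl1CKO Chgb-high cells and 0.00032 in control Sst-high cells. It was -0.00041 in Isl1CKO Ttr-high and -0.0071 in control Gcg-high cells, of which 0.692% and 3.24% had a Dlk1 UMI. Meg3 was counted in 94.2% of Dlk1-positive and 84.7% of Dlk1-negative Isl1CKO Chgb-high cells, and in 91.6% and 94.3% of such control Sst-high cells. These correlations describe cells of 1 library each and carry no test.

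Peg10 derives from a retrotransposon and encodes a gag-like protein needed for the placenta. It (ENSMUSG00000092035.8) lies at chr6:4747306-4760517 on the plus strand, next to Sgce, the sarcoglycan epsilon gene, which is transcribed the other way. Peg10 was patchy. In Isl1CKO it stood at 0.341 CPM (0.111 to 0.795) in insulin-high cells, 42.9 CPM (41.0 to 44.9) in Ttr-high cells and 15.6 CPM (13.3 to 18.3) in Chgb-high cells. In control it stood at 1.68 CPM (1.32 to 2.12) in insulin-high cells, 159 CPM (153 to 166) in Gcg-high cells and 58.2 CPM (53.1 to 63.6) in Sst-high cells. Insulin-high cells of each library had the lowest level, although they were the deepest cells, with medians of 38693 and 48339.5 UMIs.

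The level in the other classes came from a minority of cells. No Peg10 UMI was counted in 84.9% of Isl1CKO Ttr-high cells and 58.3% of control Gcg-high cells. In Ttr-high cells, 25 cells (1.73%) with 20 or more UMIs held 59.6% of the class's Peg10 UMIs, and in Gcg-high cells 31 cells (5.02%) held 54.1%. Thinned to 5000 UMIs, 7.40% of Isl1CKO Ttr-high and 25.1% of control Gcg-high cells had a Peg10 UMI, against 0.261% of Isl1CKO and 0.780% of control insulin-high cells. The highest single cells had 99 and 87 UMIs of Peg10 in those 2 classes.

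**Figure D2:**
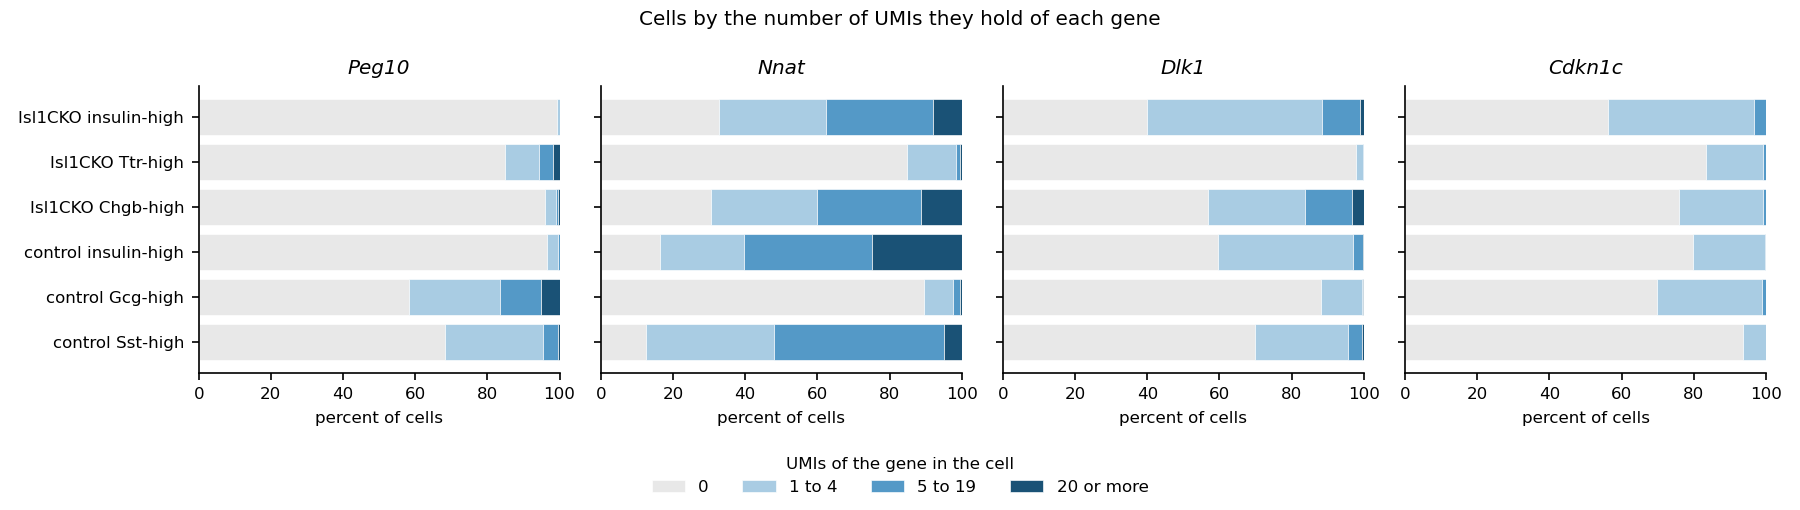
Percent of cells in each class that hold 0, 1 to 4, 5 to 19 or 20 or more UMIs of Peg10, Nnat, Dlk1 and Cdkn1c, Isl1CKO classes above control classes. Most cells hold no Peg10, while 24.9% of control insulin-high cells hold 20 or more UMIs of Nnat.

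Peg10 was lower in Isl1CKO in all 3 comparisons between genotypes. Isl1CKO Ttr-high against control Gcg-high cells gave -2.07 (-2.16 to -1.98), and the 2 insulin-high sums gave -2.72 (-4.38 to -1.43) on only 5 Isl1CKO and 72 control UMIs. Over all cells the ratio was -1.21 (-1.29 to -1.13), and -0.63 without centring. Sgce stood at 1.63, 33.4 and 12.5 CPM in Isl1CKO insulin-high, Ttr-high and Chgb-high cells, and at 0.888, 53.7 and 65.6 CPM in control insulin-high, Gcg-high and Sst-high cells. Both genes were thus lowest in insulin-high cells. Within a class their cells overlapped to differing degrees: at 5000 UMIs Sgce was counted in 23.9% of Peg10-positive and 23.8% of Peg10-negative control Gcg-high cells, and in 39.5% and 23.2% of such control Sst-high cells.

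Peg3 encodes a large zinc finger protein (ENSMUSG00000002265.15, chr7:6703892-6730431, minus strand). It was counted in 98.7% or more of the cells of every class. Levels were 434, 1337 and 1048 CPM in Isl1CKO insulin-high, Ttr-high and Chgb-high cells, and 495, 1399 and 774 CPM in control insulin-high, Gcg-high and Sst-high cells. Over non-hormone UMIs alone, Peg3 stood at 956 CPM in Isl1CKO and 1593 CPM in control insulin-high cells. None of the genotype ratios of Peg3 reached 2-fold, at 0.03 over all cells, -0.60 in insulin-high cells and -0.24 for Ttr-high against Gcg-high cells. Usp29, its neighbour, had 44.8 CPM in Isl1CKO Ttr-high cells and 42.9 CPM in control Gcg-high cells.

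Gnas encodes the alpha subunit of Gs, the G protein that couples the glucagon and GLP-1 receptors to cAMP. Its locus (ENSMUSG00000027523.19, chr2:174284320-174346744, plus strand) has several starts with different imprinting that share the last exons, so 3' counts do not separate its transcripts. In Isl1CKO it stood at 2870 CPM in insulin-high cells, 18681 CPM (18641 to 18722) in Ttr-high cells and 7257 CPM in Chgb-high cells. In control it stood at 1152 CPM in insulin-high cells, 8044 CPM (7997 to 8092) in Gcg-high cells and 3752 CPM in Sst-high cells. The median Isl1CKO Ttr-high cell held 549 UMIs of Gnas, and the median control Gcg-high cell 162.

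Gnas was the sole member at least 2-fold higher in Isl1CKO over all cells, at 1.47 (1.47 to 1.48). In insulin-high cells the ratio was 0.90 (0.89 to 0.92), inside 2-fold. Isl1CKO Ttr-high against control Gcg-high cells gave 1.04 (1.03 to 1.05), and it was inside 2-fold in 5 of 19 alternatives, the lowest at 0.67. Ttr-high cells held 81.0% of all Gnas UMIs of Isl1CKO, and Gcg-high cells held 48.5% of those of control. Nespas, an antisense transcript of the locus, had 7.56 CPM in Isl1CKO and 2.43 CPM in control insulin-high cells, and 1.10 CPM in Isl1CKO Ttr-high and 0.147 CPM in control Gcg-high cells.

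Cdkn1c encodes p57, an inhibitor of cyclin-dependent kinases, and is maternally expressed (ENSMUSG00000037664.12, chr7:143458339-143461050, minus strand). In Isl1CKO it stood at 23.5 CPM (21.1 to 26.1) in insulin-high cells, 10.3 CPM (9.38 to 11.3) in Ttr-high cells and 17.9 CPM (15.4 to 20.7) in Chgb-high cells. In control it stood at 6.15 CPM (5.43 to 6.94) in insulin-high cells, 22.3 CPM (19.9 to 25.0) in Gcg-high cells and 5.31 CPM (3.86 to 7.13) in Sst-high cells. Insulin-high cells were thus highest of the 3 classes in Isl1CKO, and Gcg-high cells in control. The insulin-high ratio between genotypes was 1.52 (1.29 to 1.76), and 43.9% of Isl1CKO against 20.3% of control cells had a UMI, or 13.1% and 3.34% at 5000 UMIs. Isl1CKO Ttr-high against control Gcg-high cells gave -1.29 (-1.50 to -1.07). Against the 113 control Ttr-high cells, with 9.20 CPM on few UMIs, it was -0.32, given without an interval.

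Plagl1 encodes a zinc finger factor whose excess in humans is a cause of transient neonatal diabetes (ENSMUSG00000019817.18, chr10:13060504-13131694, plus strand). Its counts were low. In Isl1CKO it had 0.749 CPM (0.374 to 1.34) in insulin-high cells, 8.87 CPM (8.01 to 9.80) in Ttr-high cells and 4.303 CPM (3.13 to 5.78) in Chgb-high cells. In control it had 2.08 CPM (1.67 to 2.56) in insulin-high cells, 4.84 CPM (3.74 to 6.16) in Gcg-high cells and 4.95 CPM (3.55 to 6.72) in Sst-high cells, the last 2 of which overlap. The insulin-high ratio was -1.89 (-2.94 to -0.98) on 11 Isl1CKO and 89 control UMIs, and the ratio of Ttr-high to Gcg-high cells was 0.70 (0.32 to 1.10).

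Igf2, a paternally expressed fetal growth factor that signals through Igf1r and is cleared by Igf2r, lies beside the maternally expressed noncoding RNA H19. Igf2 (ENSMUSG00000048583.16) spans chr7:142650766-142666816 and H19 (ENSMUSG00000000031.15) chr7:142575529-142578143, both on the minus strand. Both had few UMIs in the endocrine classes. Igf2 had 6, 10 and 3 UMIs in Isl1CKO insulin-high, Ttr-high and Chgb-high cells, and 41, 6 and 4 UMIs in control insulin-high, Gcg-high and Sst-high cells. That is 0.409, 0.229 and 0.293 CPM in Isl1CKO, and 0.958, 0.440 and 0.483 CPM in control. H19 was not counted in any of the 383 Isl1CKO or 898 control insulin-high cells, which allows shares of cells with a UMI up to 0.783% and 0.334% and sets no limit on cells that express it below capture. Neither gene had enough UMIs for a ratio in the insulin-high or the Ttr-high comparison.

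A few cells outside the classes held most of the UMIs of both genes. Mesenchymal-marker-rich cells, in which 7 collagen, proteoglycan and PDGF receptor genes made up at least 1% of UMIs, numbered 20 in Isl1CKO and 40 in control. This set was added after the data were seen. They held 81.8% of the Igf2 UMIs of Isl1CKO and 67.5% of those of control, and 96.2% and 83.1% of the H19 UMIs. Igf2 stood at 997 CPM (853 to 1158) in the Isl1CKO set and 356 CPM (297 to 422) in the control set, and H19 at 875 CPM (740 to 1027) and 280 CPM (228 to 339). Single cells weighed heavily: the highest Isl1CKO cell held 81 of 171 Igf2 UMIs, and 2 control cells held 54.2% of theirs. Over cells outside the classes at 5000 UMIs, Igf2 and H19 correlated at r of 0.761 in Isl1CKO and 0.615 in control, resting on 4 and 6 cells with both.

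**Figure D3:**
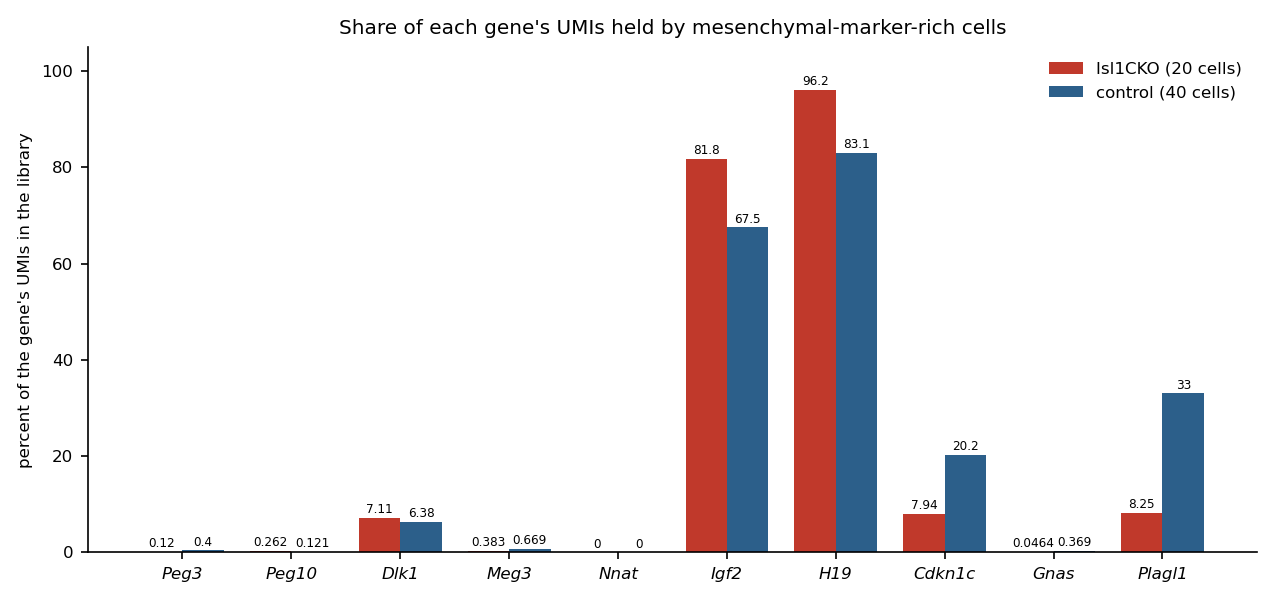
Percent of all UMIs of each gene in a library that mesenchymal-marker-rich cells held, 20 cells of Isl1CKO (red) and 40 of control (blue). Igf2 and H19 reach 67.5% to 96.2%, Plagl1 and Cdkn1c 7.94% to 33.0%, and Nnat none.

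Dlk1, Cdkn1c and Plagl1 were also above their class levels in the mesenchymal-marker-rich cells. Dlk1 stood at 1143 CPM (989 to 1315) in the Isl1CKO and 293 CPM (240 to 354) in the control set. Cdkn1c stood at 682 CPM (564 to 818) and 532 CPM (460 to 612), and 2 of the 40 control cells held 76.0% of the Cdkn1c UMIs of that set. Plagl1 stood at 280 CPM (206 to 371) and 312 CPM (258 to 375), and was counted in 17 of 20 and 37 of 40 cells. Peg3 was below its level in most classes there, at 624 and 586 CPM. The summed mesenchymal markers were 0.136 CPM in Isl1CKO and 0.631 CPM in control insulin-high cells, and 1.21 CPM in Isl1CKO Ttr-high and 30.9 CPM in control Gcg-high cells. Without the mesenchymal-marker-rich cells, Igf2 stood at 0.488 CPM in Isl1CKO and 0.873 CPM in control over all cells and was then also at least 2-fold lower in Isl1CKO there, making 4 members; the counts of the other comparisons were unchanged. Those 2 levels are less than 2-fold apart before centring and rest on few UMIs. Insulin-high cells, 898 in control and 383 in Isl1CKO, held 41 and 6 Igf2 UMIs, and the part of class sizes in this ratio was not tested.

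**Figure D4:**
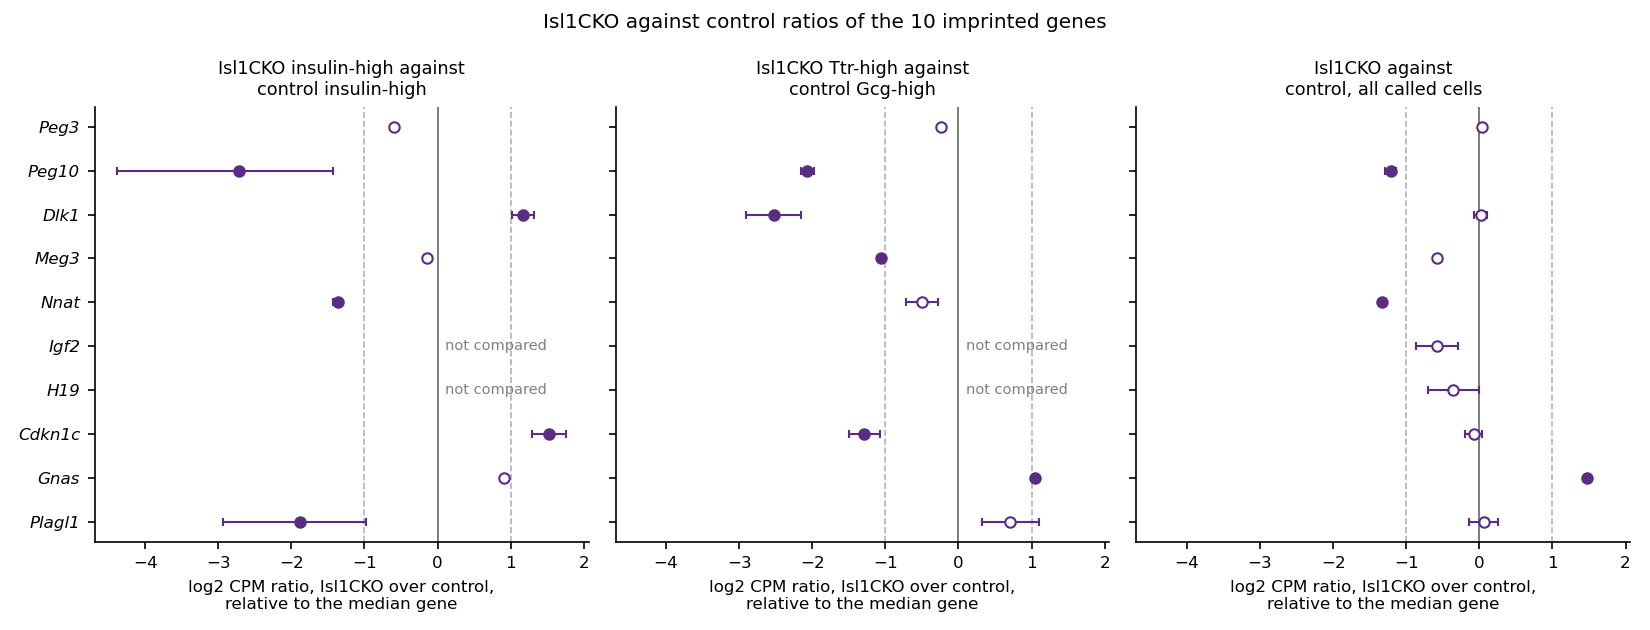
Relative log2 CPM ratio, Isl1CKO over control, of the 10 members in insulin-high cells, in Ttr-high against Gcg-high cells and over all cells, with exact 95% intervals for counting error; filled points are at least 2-fold, the dashed lines. Dlk1 and Cdkn1c lie above 1 in the insulin-high panel and below -1 in the panel of Ttr-high against Gcg-high cells.

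Between genotypes, 3 of 10 members differed at least 2-fold over all cells, against 12% of 14420 genes. Gnas was higher in Isl1CKO, as were 5.21% of genes, and Peg10 and Nnat lower, as were 6.82%. Nnat, at -1.33, was inside 2-fold in 3 of 18 alternatives, the nearest to 0 at -0.65. In insulin-high cells it was 5 of 8, against 9.7% of 10080 genes, with Dlk1 and Cdkn1c higher in Isl1CKO, as were 4.97% of genes, and Peg10, Nnat and Plagl1 lower, as were 4.73%. For Isl1CKO Ttr-high against control Gcg-high cells it was 5 of 8, against 15.9% of 11977 genes, with Gnas higher, as were 8.66% of genes, and Peg10, Dlk1, Meg3 and Cdkn1c lower, as were 7.21%. The members' median was -0.37 in insulin-high cells and -0.78 in the Ttr-high comparison, against 0 for all genes by construction. The median gene itself was shifted by 0.58, 0.41 and 0.17 on the log2 scale in the 3 comparisons. The 2 class comparisons pair different cells: Y-linked UMIs alone marked 33.9% of Isl1CKO and 68.5% of control insulin-high cells, and the part of the pups' makeup in these ratios was not tested beyond the split by sex that follows.

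Cells in which Xist but nothing Y-linked was counted come from female pups, and those with the reverse from male pups, so this split compares different animals of each pool. Among Isl1CKO Chgb-high cells, Peg10 stood at 58.7 CPM (48.7 to 70.1) in 90 female and 4.69 CPM (3.29 to 6.49) in 376 male cells; 2 of all 494 Chgb-high cells held 54.4% of its UMIs. Peg10 differed less between sexes in Ttr-high Isl1CKO cells, at 50.8 CPM in female and 38.6 CPM in male cells, and in Gcg-high control cells, at 175 and 165 CPM. Peg3 in insulin-high cells stood at 353 CPM in female and 616 CPM in male Isl1CKO cells, and at 424 CPM in female and 514 CPM in male control cells. Gnas in insulin-high cells stood at 2376 CPM in female and 3372 CPM in male Isl1CKO cells, against 1140 and 1143 CPM in control cells. In Isl1CKO insulin-high cells Meg3 ran the same way, at 366 CPM in female and 541 CPM in male cells, while Nnat stood at 162 and 163 CPM. All values of this split are CPM over all UMIs, without centring, and the part of the hormone share in them was not tested. Dlk1 and Cdkn1c in insulin-high cells were higher in Isl1CKO in both sexes. Dlk1 stood at 51.5 CPM in female and 60.9 CPM in male Isl1CKO cells, against 11.4 and 18.6 CPM in control cells. Cdkn1c stood at 23.5 and 21.4 CPM in Isl1CKO, against 5.74 and 6.29 CPM in control.

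**Figure D5:**
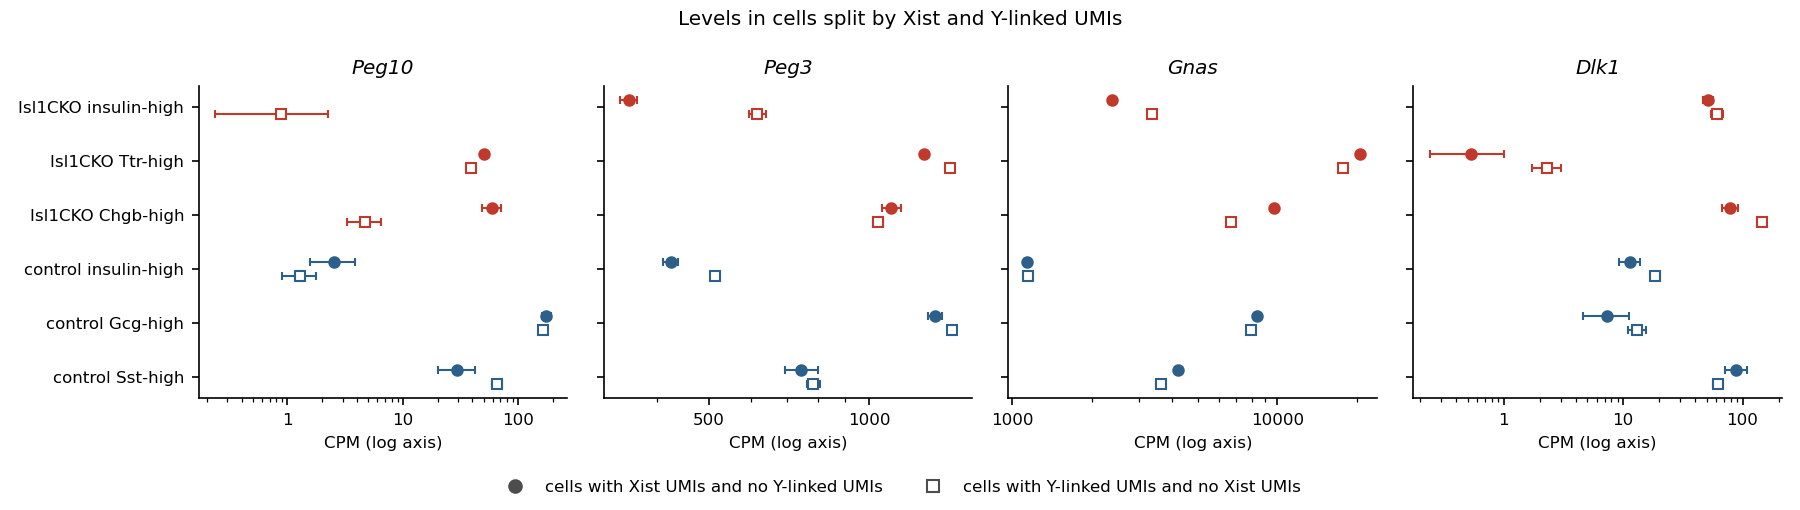
CPM (log axis) of Peg10, Peg3, Gnas and Dlk1 by class in cells with Xist UMIs alone (filled circles) and with Y-linked UMIs alone (open squares), Isl1CKO in red above control in blue, with exact 95% intervals for counting error. No point is drawn for Peg10 in female Isl1CKO insulin-high cells, which held 0 UMIs; the widest gap is that of Peg10 in Chgb-high cells.

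Cycling cells, with UMIs of at least 3 of 10 cell-cycle genes, numbered 179 among Isl1CKO Ttr-high and 57 among control Gcg-high cells. Peg10 was lower in cycling than in other cells, at 23.1 CPM against 46.4 CPM in Isl1CKO Ttr-high and 86.0 CPM against 169 CPM in control Gcg-high cells. Few cells held most of its UMIs, with 59.6% in 25 Ttr-high and 54.1% in 31 Gcg-high cells. The part of these cells in the Peg10 values was not tested. Cdkn1c, the kinase inhibitor, had 8.56 CPM (6.47 to 11.1) in cycling against 10.6 CPM (9.60 to 11.7) in other Ttr-high cells, intervals that overlap. In control Gcg-high cells it had 11.8 CPM (7.13 to 18.5) in cycling against 23.7 CPM (21.02 to 26.6) in other cells. Plagl1 ran the other way in control Gcg-high cells, at 11.8 CPM (7.13 to 18.5) in cycling against 3.91 CPM (2.87 to 5.20) in other cells, on 19 and 47 UMIs. Cycling cells were deeper, with a median of 27831 UMIs against 20433 in control Gcg-high cells.

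Cells outside the classes held further differences. Fev-positive cells, with at least 3 UMIs of Fev, a factor of endocrine precursors and serotonergic cells, numbered 479 in Isl1CKO and 104 in control; this set too was added later. The sets differ in their cells: the hormone gene Ppy stood at 886 CPM in the Isl1CKO set and 102700 CPM in the control set, and its part in the differences that follow was not tested. Nnat stood at 496 CPM (480 to 512) in the Isl1CKO and 206 CPM (187 to 227) in the control set, and was counted in 67.2% and 51.0% of cells. Dlk1 stood at 51.0 and 22.5 CPM, Plagl1 at 9.01 and 1.47 CPM and Gnas at 9076 and 5211 CPM in those sets. Peg10 ran against them, at 30.6 CPM (26.8 to 34.7) in the Isl1CKO and 55.4 CPM (45.6 to 66.6) in the control set. A set of 208 control cells with at least 5% pancreatic polypeptide had 90.1 CPM of Nnat, between Gcg-high and Sst-high cells, and 38.3 CPM of Peg10.

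Among 46 other imprinted genes, 35 could be compared over all cells, 29 in insulin-high cells and 33 in Ttr-high against Gcg-high cells. Higher and lower counts were 3 and 3, 2 and 1, and 3 and 5, with medians of -0.26, -0.18 and -0.10. Of all genes, 12%, 9.7% and 15.9% differed in either direction, so the count in insulin-high cells is near the background. Kcnq1, a potassium channel of the Cdkn1c cluster, was higher in Isl1CKO in all 3, at 2.05, 2.00 and 3.23. Kcnq1ot1, the noncoding RNA of the same cluster, was lower over all cells (-1.18) and in Ttr-high against Gcg-high cells, at 72.0 and 301 CPM (-2.24). Grb10, an adaptor that dampens insulin and IGF receptor signalling, stood at 213 CPM in Isl1CKO and 57.6 CPM in control over all cells (1.31). Within classes it was inside 2-fold, at 0.40 in insulin-high and 0.49 in Ttr-high against Gcg-high cells. Dcn, which is also among the mesenchymal markers, stood at 13.2 CPM in Isl1CKO and 31.5 CPM in control over all cells (-1.83). Zim1, of the Peg3 cluster, was lower in insulin-high cells (-1.57). Asb4 and Ppp1r9a, both of the Peg10 cluster, were lower in Ttr-high against Gcg-high cells, at -2.03 and -1.46.

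Of 16 genes of the IGF axis, Igfbp3, which binds IGFs in serum, stood at 19.1 CPM in Isl1CKO and 0.606 CPM in control over all cells (4.40). Igfbp5 was lower in all 3 comparisons, at -4.69, -3.31 and -4.33. In Ttr-high against Gcg-high cells 4 of 12 compared were higher, against 8.66% of all genes, and 5 lower, against 7.21%, with the IGF receptor gene Igf1r among those lower (-1.32). Of 14 kinase inhibitors and G1 cyclins, Cdkn1a, which encodes p21, was lower in insulin-high cells at 10.6 CPM in Isl1CKO and 22.0 CPM in control (-1.47), while Cdkn1c was higher. In Ttr-high against Gcg-high cells Cdkn2a, another inhibitor gene, was higher (1.57) and the cyclin gene Ccnd1 lower (-1.41). Of 22 genes of Gs and cAMP signalling other than Gnas, none was higher in any of the 3 comparisons, and 5 of 22, 1 of 16 and 5 of 17 were lower. Of all genes 5.21%, 4.97% and 8.66% were higher and 6.82%, 4.73% and 7.21% lower in these comparisons, so the insulin-high counts are near the background. The GLP-1 receptor Glp1r had 1.70 CPM in Isl1CKO and 6.05 CPM in control insulin-high cells (-2.24), and the phosphodiesterase Pde8b had 0.8001 CPM in Isl1CKO Ttr-high and 5.21 CPM in control Gcg-high cells (-2.88).

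The genes whose levels were most like each member over the 8 sums, 4 per library, were found among 9639 genes by Pearson r of log2(CPM + 1). Mcm2, a subunit of the replicative helicase, came first for Peg10 (r = 0.99) and Hirip3 next. Camk2n1 and Rab3b came first for Dlk1 (0.98 and 0.97), Jakmip1 and Lgalsl for Nnat (0.96 each), and Rpl41 for Gnas (0.996). For Igf2 and H19 the first was Mfap4, a microfibril protein of connective tissue (0.99 each). Next came the erythroid marker Alas2 for Igf2 and Dmbt1 for H19, also at 0.99 each. Outside the classes Igf2 stood at 16.8 CPM in control and 16.7 CPM in Isl1CKO, and H19 at 13.9 and 13.5 CPM. In the classes they stood at 0.958 and 0.483 CPM or less, so their r values rest on the sums outside the classes. Kcnn3 for Cdkn1c (0.90) and Hes1 for Plagl1 (0.98) followed. The 8 sums share libraries and depth, so these values carry no test.

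Free RNA was read from 94072 control barcodes of 10 to 100 UMIs. It held 280 CPM of Nnat, 391.5 CPM of Meg3, 292 CPM of Peg3, 20.4 CPM of Dlk1 and 18.9 CPM of Peg10. Hormone levels in mesenchymal-marker-rich control cells were 0.980% to 2.53% of those in free RNA. No such barcodes of the Isl1CKO library were analysed here.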

How the data were processed

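The deposited files held raw UMI counts per gene and barcode, made by the authors with STARsolo (STAR 2.7.3a), Seurat 4.3.0.1 and GRCm38.p6, per the submitters' processing notes. The control matrix was unfiltered, with 1919728 barcodes holding a UMI, and barcodes of at least 6825 UMIs were taken as cells; all 3020 Isl1CKO barcodes were kept. The members and lists were chosen with earlier results of these data known. UMIs were summed per class and given as CPM with exact Poisson intervals (95%); ratios carry exact conditional binomial intervals. Cells meeting both class rules were left out of comparisons within a library. Named genes were the 10 members, list genes at least 2-fold different, largest first, the IGF receptor as the receptor of Igf2, and the 2 genes most like each member; the neighbouring genes were added for their position. Shares of cells were also computed after thinning each cell to 5000 UMIs. Doublets were not removed from the reported values. In an alternative, cells marked by Scrublet (scanpy 1.11.5) were left out, 8 of Isl1CKO (0.265%, too few for the caller to have worked) and 22 of control. Alternatives covered class and cell thresholds, centring, depth, minimum UMIs, sex, cycling cells, free RNA and doublets. Coordinates are from GENCODE annotation M21, which holds 46488 of the 46983 identifiers. Code was checked on simulated counts. Python 3.11.15, numpy 2.4.6, scipy 1.17.1 and pandas 2.3.3 were used.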

Additional observations from a re-analysis of the deposited data

Results flagged for a closer look

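For 3 members the ratio of Isl1CKO to control had opposite signs in the insulin-high comparison and in the comparison of Ttr-high with Gcg-high cells; with 1 library per genotype the difference was not tested. Dlk1 was at 1.17 and -2.52, a difference of 3.69 on the log2 scale. Cdkn1c was at 1.52 and -1.29, a difference of 2.81. Plagl1 was at -1.89 and 0.70, a difference of -2.59. With control Ttr-high cells in place of Gcg-high cells the second ratio was -0.39 for Dlk1 and -0.32 for Cdkn1c, both inside 2-fold. Those 113 control cells held few UMIs of either gene, fewest of Dlk1, and neither ratio carries an interval.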

How the results depend on the processing

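Under other settings, 125 counts of members at least 2-fold different stayed close to the count reported, and 12 moved beyond it by more than 1.5 times. No member's ratio that was called changed sign. Over all cells the count of 3 became 1 (1 higher, 0 lower) without centring and 5 in cells with Y-linked UMIs alone. In insulin-high cells 5 became 3 after thinning and 3 with a minimum of 200 UMIs. In Ttr-high against Gcg-high cells 5 became 3 after thinning, with a minimum of 200 UMIs, in cells with Y-linked UMIs alone, and with control Ttr-high cells in place of Gcg-high cells. In control Gcg-high against insulin-high cells 4 (2 higher, 2 lower) became 7 (6 higher, 1 lower) without centring. The median gene was itself at 1.08 there, so most genes compared were also at least 2-fold higher. In control Sst-high against insulin-high cells 2 became 4 (4 higher, 0 lower) without centring, and 1 after thinning and in cells of a single class. Without centring the median gene was at 1.20 in that comparison, so the 4 higher members again go with a shift of most genes. With a minimum of 200 UMIs, Peg10 and Plagl1, at 72 and 89 control UMIs, were no longer compared in insulin-high cells. Dlk1, at 157 control UMIs, was then not compared in Ttr-high against Gcg-high cells, and Gnas was inside 2-fold there. The cause of the other moves was not tested. Leaving out mesenchymal-marker-rich cells alone was chosen after seeing the data. No paired analysis was possible because each genotype had 1 pooled library. Igf2, H19, Plagl1 and Peg10 in insulin-high cells rest on few UMIs, and free RNA was measured for control alone.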
